A study of Mus musculus with 6 samples.

Results

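R-spondins are secreted proteins that strengthen Wnt signalling, the pathway whose nuclear factor Lef1 is needed for whisker follicles to start. They bind the receptors Lgr4, Lgr5 and Lgr6 together with Znrf3 or Rnf43, membrane E3 ubiquitin ligases that otherwise remove Frizzled receptors from the cell surface, so that more Frizzled stays available to Wnt ligands. Wnt signalling itself raises Znrf3 and Rnf43 in many tissues, which makes the ligases feedback inhibitors.

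The genes described are the 4 R-spondin genes (Rspo1, Rspo2, Rspo3 and Rspo4), the 3 receptor genes (Lgr4, Lgr5 and Lgr6) and the ligase genes Znrf3 and Rnf43. They were chosen by name, as 9 of 21728 protein-coding genes in the GENCODE annotation of mm10. H3K4me1, the mono-methyl mark on lysine 4 of histone H3 found at active and poised enhancers, was profiled with CUT&Tag, where an antibody guides a transposase to the mark. Whole whisker pads of wild-type B6/J2 mouse embryos at embryonic day 12 were digested to single cells, and 3 samples were made with an H3K4me1 antibody and 3 with control IgG. The titles number the pads from 1 to 3, and the H3K4me1 peak lists are called replicates 1, 2 and 3 accordingly. No control IgG data were used here, and the values below therefore carry no background from the same assay. Nothing in the labels says whether the pads came from separate embryos. A pad holds mesenchyme, surface ectoderm, nerve and vessel, so a peak carried by fewer cells and a weaker mark in each cell cannot be told apart.

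The lists held 16788, 12969 and 13998 peaks in replicates 1, 2 and 3, each being the top 1% of signal blocks of its library. The median total signal of a peak, in pileup units not scaled to depth, was 27606.5, 44891 and 35144.5, and the lists hold no read counts from which the depth of a library could be taken. The source names of 2 of the 3 H3K4me1 samples, replicates 2 and 3, give adult kidney in place of whisker pad. Of 12 facial mesenchyme markers, 12, 12 and 9 had a peak over the gene or its 5 kb flanks in replicates 1, 2 and 3. Of 10 surface ectoderm markers 7, 7 and 4 had one, and of 12 adult kidney markers 5, 5 and 3, whereas 24.9, 22.6 and 19.6% of all protein-coding genes did. No replicate had a peak at 7 of the kidney markers, among them Nphs1 of the podocyte and Umod and Slc12a3 of the tubule. All replicates had a peak at 3 of them, chosen for mention after their values were seen: Cubn, Slc12a1 and Aqp1, the last at percentiles 97.6, 97.9 and 71.9. Counts are therefore also given for replicate 1 alone, the sample with whisker pad in both labels.

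A gene peak is here a peak that overlaps the gene body or the 5 kb on either side. A distal peak lies farther out, up to 100 kb from the gene body, with the start site of the gene as its nearest protein-coding start site. Peaks of different replicates that overlapped by at least 1 bp were merged into a region, and the regions of a gene are lettered from the upstream to the downstream end. The level of a peak is the percentile of its total signal within its own list, where the strongest peak is at 100. Since the 3 lists used belong to a single group, no test between conditions could be made and no p-value is given.

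The mm10 sequences under the highest pileup of the strongest regions of Rspo1, Lgr4 and both ligases are shown, since the results below turn on these regions. Each is 300 bases of the plus strand, centred on the highest pileup of the replicate in which the region stood highest. Capitals mark the bases where the pileup was highest in a replicate, for each replicate whose maximum fell inside the window.
Rspo1, chr4:124973012-124973311: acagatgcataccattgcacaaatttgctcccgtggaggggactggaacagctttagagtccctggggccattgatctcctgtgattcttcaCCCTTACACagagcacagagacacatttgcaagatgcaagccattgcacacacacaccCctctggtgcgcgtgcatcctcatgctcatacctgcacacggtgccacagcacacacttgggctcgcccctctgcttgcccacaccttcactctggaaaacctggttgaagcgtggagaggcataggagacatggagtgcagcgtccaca
Lgr4, chr2:109989178-109989477: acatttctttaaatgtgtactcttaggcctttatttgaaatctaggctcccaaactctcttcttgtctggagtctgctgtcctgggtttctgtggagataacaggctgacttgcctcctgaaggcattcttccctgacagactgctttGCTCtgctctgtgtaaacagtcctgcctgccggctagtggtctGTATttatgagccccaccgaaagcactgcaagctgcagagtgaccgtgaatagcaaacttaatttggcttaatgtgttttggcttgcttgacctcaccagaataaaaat
Znrf3, chr11:5415630-5415929: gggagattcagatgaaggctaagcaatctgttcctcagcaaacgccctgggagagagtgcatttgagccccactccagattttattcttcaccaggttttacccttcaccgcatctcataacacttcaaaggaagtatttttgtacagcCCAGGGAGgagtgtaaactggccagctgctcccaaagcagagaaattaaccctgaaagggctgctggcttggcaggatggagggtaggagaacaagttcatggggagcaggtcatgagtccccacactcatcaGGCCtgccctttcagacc
Rnf43, chr11:87687643-87687942: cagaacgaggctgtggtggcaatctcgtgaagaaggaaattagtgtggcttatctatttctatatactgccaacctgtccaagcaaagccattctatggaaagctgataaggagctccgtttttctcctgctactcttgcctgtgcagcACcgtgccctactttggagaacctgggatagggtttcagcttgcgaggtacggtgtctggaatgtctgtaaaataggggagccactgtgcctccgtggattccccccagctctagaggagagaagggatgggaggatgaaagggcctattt

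The window of Rspo1 lies upstream of the gene and the others in introns: intron 2 of Lgr4, intron 1 of Znrf3 and intron 2 of Rnf43. The maxima of all 3 replicates fell inside the window at Lgr4 and at Znrf3, those of 2 replicates at Rspo1, and that of 1 replicate at Rnf43. The TCF/LEF letters CTTTGAT and CTTTGAA were searched on both strands. They were found once, as CTTTGAA on the minus strand at bases 125 to 131 of the Znrf3 window. The homeodomain letters TAATTA, which read the same on both strands and overlap neither of the others, were found in none of these windows. Repeat-masked bases made up 9.33% of the window at Rspo1, 6.33% at Lgr4, 7.33% at Znrf3 and 6.33% at Rnf43.

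Peaks were found over 8 of the 9 genes in at least 1 replicate and over 7 of 9 in all 3 replicates. The 7 were Rspo1, Rspo2, Lgr4, Lgr5, Lgr6, Znrf3 and Rnf43. Among all protein-coding genes 28.7% had a gene peak in at least 1 replicate and 15.5% in all 3. Longer genes catch more peaks, and among the 9062 genes of 20 to 200 kb, the class that holds all 9, the shares were 35.4 and 20.5%. Length was not matched within this class, where the 9 genes run from 22.7 to 168.5 kb. The exceptions were both R-spondins. Rspo3 had a gene peak in replicate 2 alone, and Rspo4 had none in any replicate. By replicate 7, 8 and 7 of the 9 genes had a gene peak in replicates 1, 2 and 3, against 30.5, 27.1 and 26.5% of the genes of 20 to 200 kb. With the stronger 50% of each list, 6 genes had one in all 3 replicates, since Lgr6 had none left in replicate 3.

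In all, 28, 21 and 28 peaks were assigned to the 9 genes in replicates 1, 2 and 3 (mean 25.7 ± 4.04, SD, n = 3), of which 3 ± 1 were distal. They merged into 37 regions, of which 15 (40.5%) were called in every replicate, against 46.3% of all 19251 regions in the lists. Of the remaining regions 9 had a peak in 2 replicates and 13 in a single replicate, 5 in replicate 1, 1 in replicate 2 and 7 in replicate 3. Regions in all replicates stood at a median percentile of 62.0, those in 2 replicates at 35.1 and those in a single replicate at 20.4. No region of a single replicate was above percentile 60.9. The regions that recurred were thus mostly those of higher signal in these lists. This order is partly set by the cut at the top 1% of blocks, below which a weak region drops out of a list.

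**Figure D1:**
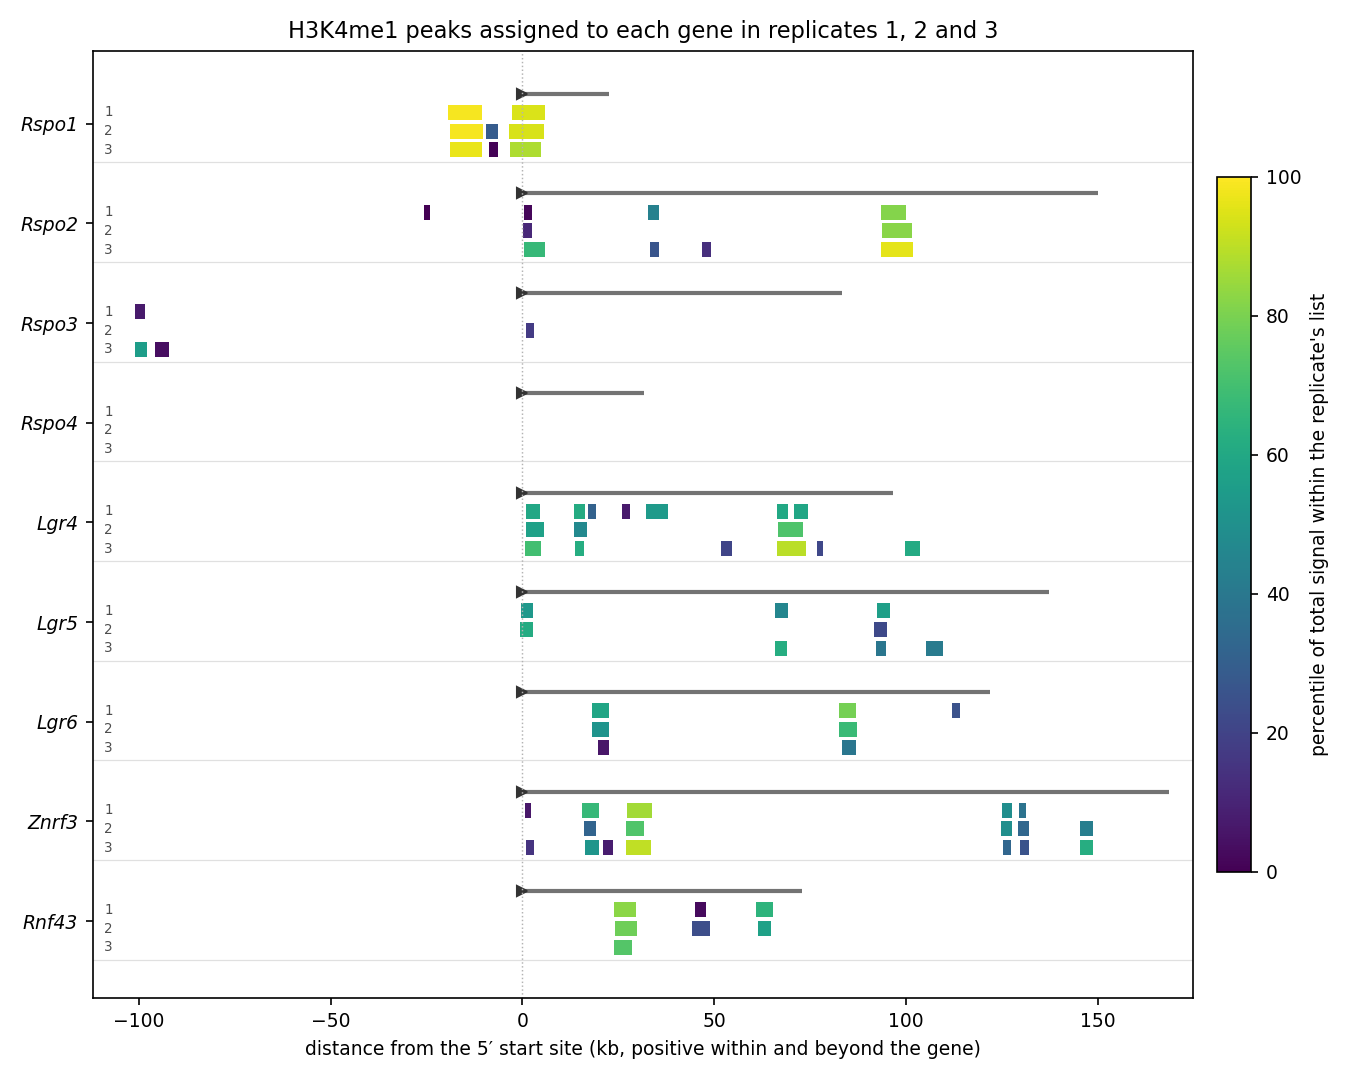
Peaks assigned to each gene, in kb from its 5′ start site (triangle), with the gene as a grey line and replicates 1, 2 and 3 from top to bottom; colour gives the percentile of total signal. Rspo1 has its strong peaks upstream of and over the start site, Lgr4, Znrf3 and Rnf43 have theirs within the gene, and Rspo4 has none.

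Among the ligand genes, Rspo1 had the strongest assigned peak of all 9 genes in every replicate, a distal one. The gene lies on chromosome 4 from 124986430 to 125009099 on the plus strand (22.7 kb), and its peaks were in a block upstream and a block over the start site. The upstream region A ran from 124967125 to 124976062, from -19.3 to -10.4 kb relative to the start site. Its peaks had total signals of 290604, 416958 and 177048 in replicates 1, 2 and 3, which ranked 212 of 16788, 182 of 12969 and 448 of 13998. These were percentiles 98.7, 98.6 and 96.8, a mean of 98.1 ± 1.08 (SD, n = 3), and 10.5, 9.29 and 5.04 times the list median. All 3 peaks were of about the same extent, 8752, 8447 and 8424 bp long, and shared 8261 bp. The annotation places no protein-coding gene over region A, which overlaps Gm12930, a noncoding gene annotated as antisense. The maxima of the replicates lay within 404 bp of each other, at -13.3, -13.7 and -13.3 kb from the start site.

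Region C of Rspo1, from 124983025 to 124992236, covered the start site in all 3 replicates, at percentiles 94.3, 93.9 and 87.6 (91.9 ± 3.7, SD, n = 3). It was the only start site of the 9 genes inside a peak in every replicate, which 1.82% of all protein-coding genes and 1.56% of genes of 20 to 200 kb had. Its maximum lay in intron 1, 0.66, 0.72 and 2.33 kb past the start site in replicates 1, 2 and 3. A weak region B between the blocks was called in replicate 2, at percentile 28.7, and in replicate 3, at percentile 0.6. Peaks covered 26.2, 28.0 and 24.7% of Rspo1 with its flanks, the highest share of the 9 genes.

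Rspo2, the R-spondin known for roles in limb and craniofacial development, had its strongest region deep inside the gene. It lies on chromosome 15 from 43020794 to 43170826 on the minus strand (150.03 kb). Region E, from 43068912 to 43077230, was in intron 5, 93.6 to 101.9 kb past the start site. Its total signal was 62636, 101705 and 161626 in replicates 1, 2 and 3, at percentiles 81.4, 82.2 and 96.0 (86.5 ± 8.23, SD, n = 3). Replicate 3 was the highest, and replicates 1 and 2 were close to each other. The maxima fell within 76 bp, and the 3 peaks shared 6425 bp. Region B, just past the start site, was at percentiles 1.7, 11.1 and 67.0 and so differed far more between replicates than region E. Its peaks began 0.39, 0.22 and 0.56 kb past the start base, which no peak covered. The other regions of Rspo2 were region C, 32.7 to 35.7 kb inside the gene in replicates 1 and 3, and regions A and D, each in a single replicate.

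Rspo3, which is needed for vessels of the placenta and acts in facial and limb mesenchyme, carried little signal. It lies on chromosome 10 from 29452416 to 29535867 on the minus strand (83.5 kb). Its only gene peak, in replicate 2, ran from 29532919 to 29534927 in intron 1, 0.94 to 2.9 kb past the start site, at percentile 17.3. In replicate 1 the single peak assigned to it was distal, from -100.9 to -98.5 kb, at percentile 6.8. In replicate 3 a peak over the same place stood at percentile 55.3, and a further one from -95.8 to -92.0 kb at percentile 3.8. The maxima of replicates 1 and 3 at the shared place were 51.5 bp apart. This place lies at the edge of the 100 kb reach, and extending the reach to 200 kb added 0 peaks to any of the 9 genes. The nearest protein-coding gene on that side, Cenpw, is 658.7 kb away. Under a reach of 50 kb Rspo3 would keep the peak of replicate 2 alone.

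Rspo4, known for its role in nail formation, had 0 peaks in all 3 replicates. It lies on chromosome 2 from 151842927 to 151874668 on the plus strand (31.7 kb). The peaks nearest to its start site were 66.1, 64.1 and 71.4 kb away in replicates 1, 2 and 3, and their nearest protein-coding start site belonged to another gene. Of genes of 20 to 200 kb, 64.6% had no base under a peak in any replicate, so a gene without peaks is common in lists of this kind. A list of the top 1% of blocks does not show that a gene lacks the mark.

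Among the receptor genes, Lgr4 had the most peaks and the highest share under peaks, while the strongest peaks of Lgr4, Lgr5 and Lgr6 overlapped in range. Lgr4, on chromosome 2 from 109917647 to 110014257 on the plus strand (96.6 kb), had 7, 3 and 6 gene peaks in replicates 1, 2 and 3. They covered 21.5, 13.9 and 18.98% of the gene with its flanks. Region A began 0.98, 0.84 and 0.65 kb past the start site and was at percentiles 59.5, 56.7 and 69.7. Region B, also in intron 1, was at percentiles 61.3, 47.1 and 61.9, with maxima within 231 bp. Region G in intron 2, 66.4 to 74.4 kb past the start site, was the strongest, at percentiles 60.1, 72.1 and 89.8 (74.0 ± 14.9, SD, n = 3). In replicate 1 it was called as 2 peaks, at percentiles 60.1 and 59.1, whereas replicates 2 and 3 each had a single peak there. The second of these held the higher pileup of replicate 1, 71.7 kb past the start site, and the maxima of the 3 replicates fell within 44 bp. Region I in replicate 3 lay past the gene and overlapped Ccdc34 as well. The remaining 5 regions of Lgr4 were intronic and in a single replicate each.

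Lgr5, a marker of stem cells in intestine and hair follicle, lies on chromosome 10 from 115450311 to 115587780 on the minus strand (137.5 kb). Region A covered its start site in replicates 1 and 2, at percentiles 53.2 and 61.1, and had no peak in replicate 3. With Rspo1 this made 2 of 9 genes with the start site inside a peak in at least 1 replicate, against 7.59% of genes of 20 to 200 kb. The 5 kb flanks of A930009A15Rik also reach region A. In replicate 3 the nearest peak to the start site was 65.9 kb away, in region B, which was at percentile 62.0 there and 45.8 in replicate 1. Region C in intron 4 was the only region of Lgr5 in all replicates, at percentiles 55.9, 22.0 and 39.3 (39.0 ± 17.0, SD, n = 3). Its maxima were within 143 bp, but 79% of the 300 bases around the maximum were repeat-masked. Each replicate thus had a different region of Lgr5 at its highest percentile, region C in replicate 1, A in replicate 2 and B in replicate 3.

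Lgr6, expressed in hair follicle epithelium, lies on chromosome 1 from 134983301 to 135105276 on the minus strand (122.0 kb). It had 2 regions in all replicates and no peak within 18.2 kb of its start site in any replicate. Region B in intron 6 had total signals of 57701, 65038 and 29814, at percentiles 79.2, 67.6 and 39.4 (62.1 ± 20.5, SD, n = 3). Region A in intron 1 was at percentiles 59.0, 51.9 and 5.8. Replicate 3 was the lowest in both regions. By maximum signal the strongest Lgr6 peak stood at a mean percentile of 38.1 and not 62.1.

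Both ligase genes had their strongest region in an intron, between 23.9 and 33.7 kb past the start site. Znrf3, on chromosome 11 from 5276324 to 5444847 on the minus strand (168.5 kb), had 5, 5 and 7 gene peaks and 4 regions in all replicates, the most of the 9 genes. Region D, 26.9 to 33.7 kb past the start site in intron 1, had total signals of 78268, 74413 and 103673. These were percentiles 86.3, 72.6 and 90.3, a mean of 83.1 ± 9.25 (SD, n = 3), and the maxima were within 134 bp. Region B in the same intron was at percentiles 66.9, 31.95 and 52.2. Regions E and F in intron 2, 124.8 to 132.1 kb past the start site, were at 49.0, 49.5 and 32.5 and at 38.1, 33.1 and 25.6. The maxima of region F lay within 45 bp. Region G, 145.3 to 148.9 kb past the start site, was called in replicates 2 and 3. The TCF/LEF letters were in the windows of regions D and E. The start base of Znrf3 was under no peak, and a peak within 1 kb of it was called in replicate 1 alone.

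Rnf43, on chromosome 11 from 87662722 to 87735539 on the plus strand (72.8 kb), had 3, 3 and 1 gene peaks. Region A in intron 2, 23.9 to 29.9 kb past the start site, had total signals of 66352, 87929 and 55463, at percentiles 82.8, 78.0 and 73.1 (78.0 ± 4.84, SD, n = 3). The 3 peaks shared 4511 bp, but their maxima were up to 2956 bp apart, 24.7, 26.8 and 27.7 kb past the start site. Regions B and C were in replicates 1 and 2 and not in replicate 3, C at percentiles 64.7 and 57.4 and B at 2.5 and 23.6. The nearest peak to the start site was 23.9, 24.1 and 23.9 kb away.

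Ordered by the mean percentile of the strongest peak, the genes ran Rspo1, Rspo2, Znrf3, Rnf43, Lgr4, Lgr6, Lgr5 and Rspo3, from 98.1 ± 1.08 to 26.4 ± 25.5 (SD, n = 3), with Rspo4 unplaced. The ranges over replicates overlapped in 5 of the 7 pairs of neighbours, all those from Rspo2 to Lgr5. Rspo1 and Rspo2 did not overlap, and differed by 11.5 percentile points against an SD of up to 8.23, with the lowest value of Rspo1 at 96.8 and the highest of Rspo2 at 96.0. Lgr5 and Rspo3 did not overlap either, at 33.2 points against an SD of up to 25.5. The lowest value of Lgr5 was 55.9 and the highest of Rspo3 55.3, so both separations are narrow. The values of Rspo1 are those of its distal region A. By gene peaks alone Rspo1 stood at 94.3, 93.9 and 87.6 in replicates 1, 2 and 3, and its range overlapped that of Rspo2. In replicate 3 its gene peak was below the strongest of Rspo2 at 96.0, Znrf3 at 90.3 and Lgr4 at 89.8. The mean of Rspo3 also rests on replicate 3, and was 12.03 without it. Of all 15 pairs from Rspo2 to Lgr5, 4 did not overlap: Rspo2 lay above Lgr6 and Lgr5 in every replicate, and Znrf3 and Rnf43 lay above Lgr5. The ranges of the remaining pairs in this stretch overlapped. This order holds for total signal. Per base of peak, the mean percentiles of total signal were 75.6 for Znrf3, 69.3 for Lgr4, 63.1 for Lgr5 and 63.0 for Rnf43. Rspo2 stood at 62.5 by this measure and Lgr6 at 49.3. By maximum signal Rnf43 at 58.8 lay below Lgr5 at 67.1, while Rspo2 at 87.7, Znrf3 at 86.0 and Lgr4 at 70.1 lay above it.

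**Figure D2:**
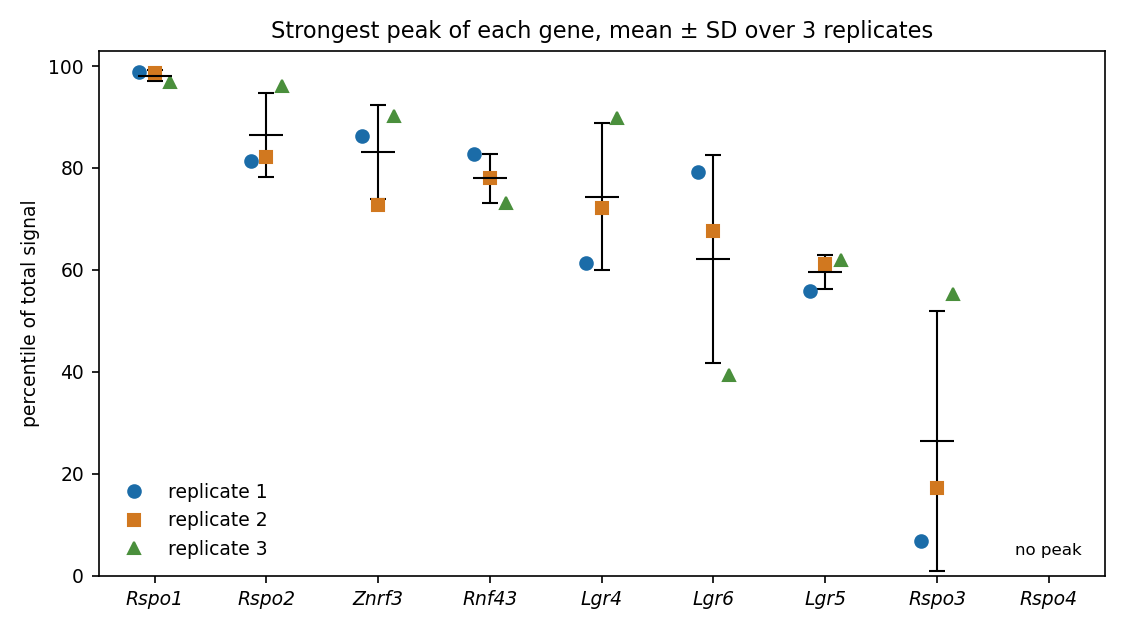
Percentile of total signal of the strongest assigned peak of each gene in its replicate's list, by gene; points are replicates, bars the mean ± SD (n = 3). Rspo1, through its distal region A, lies above the others with a narrow spread, at 96.8 to 98.7, and Lgr6 and Rspo3 have the widest spread.

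Lengths differ from 22.7 to 168.5 kb between these genes, so the share of each gene under peaks was compared as well. The means were 26.3 ± 1.69% for Rspo1, 18.1 ± 3.88% for Lgr4, 12.6 ± 6.02% for Rnf43 and 10.6 ± 2.11% for Znrf3. Rspo2 had 8.44 ± 2.71%, Lgr6 6.62 ± 1.67%, Lgr5 6.11 ± 1.35%, Rspo3 0.717 ± 1.24% and Rspo4 0% (SD, n = 3). Of the genes of 20 to 200 kb, 96.9% had the same or a lower share than Rspo1, 94.4% than Lgr4 and 83.1% than Lgr5. By this measure Lgr4 moved from the fifth place to the second, and Rspo2 from the second to the fifth. Rspo1 stayed at the top on both measures. Its share came from 1 gene peak in each replicate, and the fixed 5 kb flanks are a larger part of a short gene, so length is not fully removed. Restricting every list to its stronger 50% gave 5.43% for Znrf3 and 3.00% for Lgr5.

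**Figure D3:**
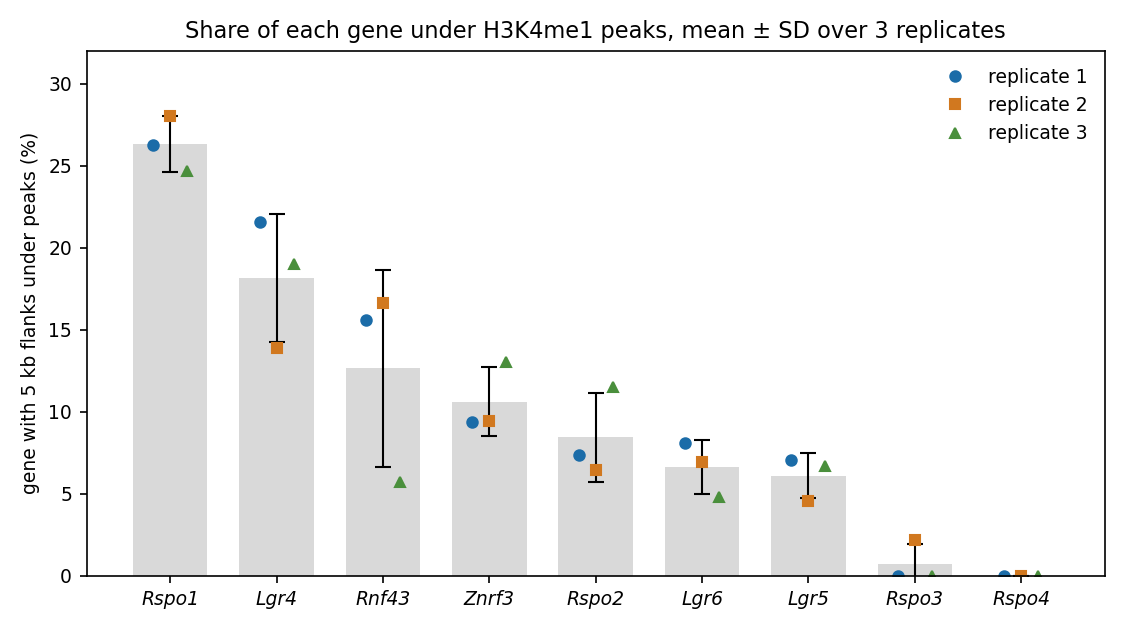
Share of each gene body with 5 kb flanks that lies under peaks, in percent; bars are means, error bars SD (n = 3) and points replicates. Rspo1 and Lgr4 have the highest means, 26.3 and 18.1%, and in Rnf43 replicate 3 lies at 5.71% against 15.6 and 16.6% in the others.

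The place of a region is partly set by the rule, which takes any peak over a gene body. Of the 15 regions in all replicates, 14 had their highest maximum in an intron, 6 of them in intron 1, and the other lay upstream of Rspo1. The maximum was more than 20 kb from the start site in 9 of the 15 and within 1 kb in 1. No share of all regions is set beside these counts, so they are not shown to be particular to these genes. A peak within 1 kb of the start site was found in all replicates at 3 of the 9 genes, Rspo1, Rspo2 and Lgr4, against 4.07% of all protein-coding genes and 4.31% of genes of 20 to 200 kb. At Rspo2 and Lgr4 the peaks lay on the transcribed side and left the start base itself uncovered. Of the 15 regions, 2 (13.3%) held the TCF/LEF letters in their 300-base window, and of all windows of regions in all replicates 10.1% did. The homeodomain letters were in 0 of 15, and in 5.26% of all windows.

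In the regions of these genes, the difference of replicate 3 from replicates 1 and 2 varied with base composition. Across the 15 regions in all replicates GC content ran from 39.4 to 56.2%, and the percentile in replicate 3 was set against the mean of replicates 1 and 2. It was above that mean in 6 of the 7 regions with the lower GC content, up to 44.6%, and in 2 of the 8 with the higher. At the intronic region E of Rspo2 (39.4% GC) it was 14.2 points higher, and at region G of Lgr4 (43.1%) 23.6 points higher. At regions B and A of Lgr6 (51.3 and 52.6%) the difference was -34.0 and -49.6 points. At the upstream region of Rspo1 (52.7%) it was -1.87 points. The 9 regions without a peak in replicate 3 had GC contents of 42.9 to 54.2%, and the 7 regions found in replicate 3 alone 34.5 to 44.8%. Regions of the same gene are not independent, and the 7 with the lower GC content all came from Rspo2, Lgr4 and Znrf3. The part of base composition in these differences was not tested. The same contrast was not made for replicate 1 or 2, nor over all 8917 regions in all replicates. It therefore does not show that replicate 3 differs more than the others.

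**Figure D4:**
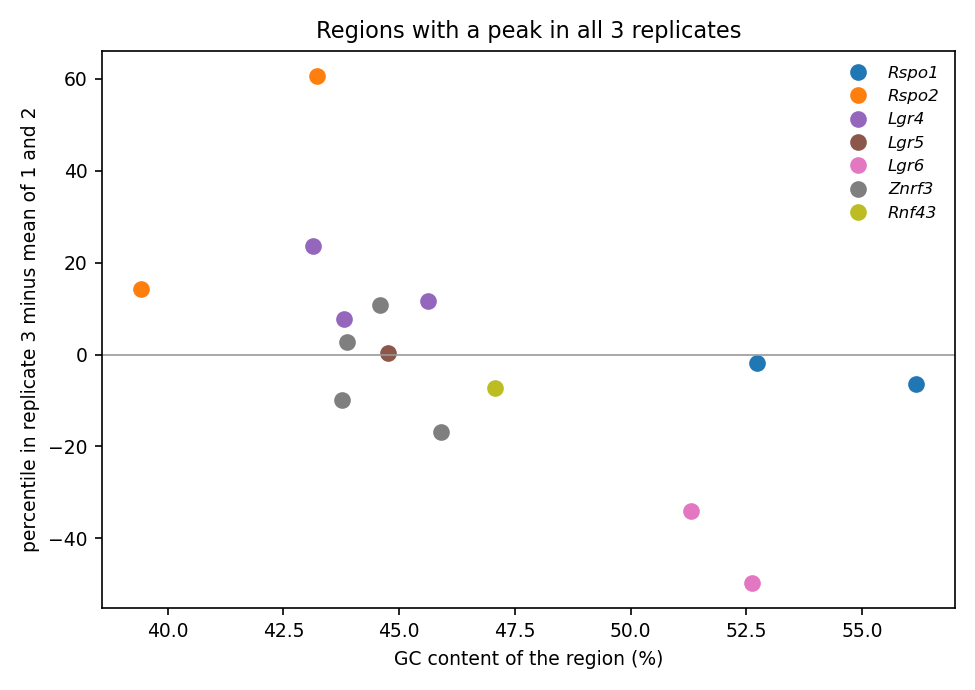
Difference in percentile of total signal, replicate 3 less the average of the other two, in percentile points, against the GC content of the region in percent, for the 15 regions of these genes with a peak in all replicates. Both Lgr6 regions lie lowest, at -34.0 and -49.6, and region B of Rspo2 highest, at 60.6.

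The other genes of the receptor complex and of the pathway were counted in the same way. Of 15 Frizzled and co-receptor genes, the proteins whose level Znrf3 and Rnf43 control or that bind Wnt beside them, 10 had a gene peak in all replicates and 13 in at least 1. By their strongest gene peak the highest were Ror2 at a mean percentile of 99.2 ± 0.958, Lrp5 at 96.1 ± 2.303 and Ryk at 95.3 ± 2.35 (SD, n = 3). Ror2 and Ryk are Wnt receptors outside the Frizzled family, and Lrp5 is a Frizzled co-receptor. Of 26 cytoplasmic, feedback and nuclear genes, 18 had one in all replicates and 21 in at least 1. The strongest were the TCF genes Tcf7l1 at 99.2 ± 0.382 and Tcf7l2 at 98.7 ± 0.527, and Axin2, a feedback inhibitor and common Wnt target, at 96.6 ± 2.08 (SD, n = 3). By the same measure, the strongest gene peak without distal peaks, Rspo1 stood at 91.9 ± 3.74 and Rspo2 at 86.5 ± 8.23 (SD, n = 3). For the counts, the shares of all protein-coding genes were 15.5% with a gene peak in all replicates and 28.7% in at least 1. These shares were not matched to the lengths of the listed genes, which run from 2.29 kb for Fzd9 to 349 kb for Ror1. The mean percentiles have no such share to be set against.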

How the data were processed

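The authors dissociated wild-type whisker pads at embryonic day 12, carried out CUT&Tag and called peaks in each replicate with SEACR 1.3 in its stringent mode, without IgG, keeping the top 1% of signal blocks. The paper left IgG out of the calling because fragment lengths in IgG replicate 1 were poorly distributed and reproduction rates were low. Bowtie2 2.3, SAMtools 0.1.19, bedtools and mm10 are named in the submitters' processing notes. The treatment of duplicate reads is not given in the sources used here. The deposited signal columns hold total and maximum fragment pileup per peak as whole numbers, with no scaling to depth, so only ranks within a list were compared. No peak ran past a chromosome end of GRCm38. Peaks were joined to GENCODE genes of that build (54050 distinct protein-coding start sites), positions are 1-based, and distances run from the nearest edge of a peak to the start site. The start site of a gene is its 5′-most protein-coding start in the annotation.

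Python 3.11.15, pandas 2.3.3 and pysam 0.24.0 were used, and the assignment was tested on simulated peaks. The 9 genes and the lists were chosen with earlier results of these data known. All 9 genes were named, with genes sharing a gene peak and the 3 highest of each pathway list. The IgG samples were not analysed here. No test was run, because the lists used form 1 group. Alternatives covered flanks, reach, overlap, stricter lists, signal measures and leaving out each replicate. Those with replicate 1 alone and with a 200 kb reach were added after seeing the data. Some marker genes and the sequence of a window are not reported here.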

Additional observations from a re-analysis of the deposited data

How the results depend on the processing

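For 25 results 198 alternative values were computed. Of the 70 for summary values 58 stayed within 1.5 times the count or within the replicate spread, and 12 did not. Some of them could not have left these bounds. Leaving out 1 of 3 replicates always shifts a mean by less than the SD, and a count of 7 of 9 cannot rise 1.5 times. The tally is therefore not a measure of stability. The number of genes with a gene peak in all replicates was 6 or 7 of 9 under each alternative run. With start sites of all annotated genes, noncoding ones included, 24.3 peaks per replicate were assigned, against 25.7 with protein-coding ones alone. This total does not say which distal peaks were lost. With the stronger 50% of each list 13.7 peaks per replicate were assigned to the genes, 7 regions had a peak in all replicates and 7.67% of the genes with flanks lay under peaks, since fewer peaks entered. The main value of this share, averaged over the 9 genes, was 9.95%, and it was 8.8% with the strongest 10000 peaks, 9.18% with 20 kb flanks and 10.6% in replicate 1 alone. In replicate 1 alone 28 regions counted as present in every list used and 2 start sites, of Rspo1 and Lgr5, lay inside a peak, against 15 and 1 in all replicates. Within 1 kb and within 2.5 kb of the start site 3 genes had a peak in all replicates. Leaving out each replicate gave 1 to 2 start sites inside a peak, the higher without replicate 3. The mean percentile of the strongest peak, 71.0 over the 8 genes with peaks, was 65.2 with total signal per base of peak. The cause of these changes was not tested, except where fewer peaks or replicates give it. No paired analysis was possible because only H3K4me1 lists entered and they form a single group. The lists carry no read depth and hold only the strongest blocks, which limits what the absence of a peak says about a gene.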

Other observations

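The 9 regions called in 2 replicates had maxima 14 to 803 bp apart. Region C of Rspo2, 32.7 to 35.7 kb inside the gene, was called in replicates 1 and 3 at percentiles 43.7 and 26.4, with maxima 114.5 bp apart. Region A of Znrf3, 0.6 to 3.0 kb past the start site, was called in the same replicates at percentiles 6.2 and 15.0, with maxima 14 bp apart. Region G of Znrf3 had maxima 161.5 bp apart in replicates 2 and 3, and region C of Rnf43 112 bp apart in replicates 1 and 2. At region A of Rspo3 the maxima were 51.5 bp apart, and at region B of Rspo1 249 bp. They were 302.5 bp apart at region A of Lgr5, 803 bp at its region B and 395 bp at region B of Rnf43. In the 15 regions with a peak in all replicates the maxima lay within 500 bp in 9 and within 200 bp in 5, with a median of 263.5 bp. Whether these places carry signal below the top 1% of blocks in the remaining replicate was not analysed here.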
